A study of Mus musculus with 14 samples.

Results

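The 10 genes Mfn1, Mfn2, Opa1, Oma1, Dnm1l, Fis1, Mff, Pink1, Bnip3 and Bnip3l were examined in RNA from mouse brains collected at postnatal day 23 (P23). They were chosen by name, as core genes of mitochondrial fusion, fission and mitophagy, by a rule that used no measured value but with earlier results of these data known, and each matched 1 of the 56748 rows of the count table. Libraries came from 7 Rik null mice (4 female and 3 male) and 7 wild-type (WT) mice (3 female and 4 male), and each was made from 1 sagittal side of a brain. A figure legend of the study gives other group sizes at this age, and the sample labels were followed. Rik null mice are homozygous for a spontaneous deletion in the first intron of 2310061I04Rik, called Rik here, a gene without a described function on chromosome 17. According to the study, the deletion arose in a single embryonic stem cell clone during the making of floxed Traf7 mice and was then separated from the Traf7 allele, so every Rik null mouse descends from that clone. The strain label is C57BL6/J for both genotypes, the WT mice were littermates, and neither genotype received a treatment. Rik null mice are runted and ataxic and die soon after P23, so that an effect of the gene and an effect of illness cannot be told apart at this age.

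Mitochondria form a network that is remodelled by fusion and fission. The mitofusins join outer membranes and OPA1 joins inner membranes, whereas the dynamin DRP1, encoded by Dnm1l, is recruited by receptors such as MFF to constrict and divide the organelle. Mitophagy removes damaged mitochondria, either after PINK1 has accumulated on them and their surface has been marked with phosphorylated ubiquitin, or through receptors such as BNIP3 and BNIP3L that bind autophagosomes directly, and neurons rely on these steps to move and renew mitochondria in long axons.

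Libraries held 14.7 to 17.9 M counts each. Rik was lower in every Rik null library, at 1.03 to 3.37 counts per M counts (CPM), against 30.3 to 40.9 CPM in WT libraries, as the labels require (log2 fold change -3.86, SE 0.151). Counts from mitochondrial DNA made up 4.01% ± 0.31 of the total in Rik null libraries and 6.55% ± 0.824 in WT libraries (SD, n = 7 each). CPM are counts relative to library sizes scaled by the trimmed mean of M values (TMM), log2 fold changes are Rik null over WT, and adjusted p-values are Benjamini-Hochberg values of edgeR's quasi-likelihood F test over 16882 genes, with a threshold of 0.05. The labels name no batch.

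Of the 10 members, Pink1 and Mff rose in Rik null brains and none fell. Pink1 was 1.38-fold higher (95% interval 1.17 to 1.63) and Mff 1.16-fold higher (1.07 to 1.26). All 10 members passed the filter on low counts. The 2 calls compare with a background of 34.4% of all tested genes called in either direction, 16.5% of them higher and 17.9% lower, and so the share of members called was no larger than that of genes at large. No member differed 2-fold or more, whereas 3.54% of tested genes were called and differed by at least this much. The median log2 fold change was 0.09 over the members and -0.00050 over all tested genes. Above 0 were 8 of the 10 members and 8425 of the 16882 tested genes. Among these members, Opa1 (0.0003) and Bnip3 (0.007) were close to 0. For the 8 members that did not pass, the 95% intervals all lay between 0.873-fold, the lower bound of Mfn2, and 1.27-fold, the upper bound of Oma1. Bounds differed between members, as in 0.920-fold to 1.09-fold for Opa1. For each of these members, only changes inside its own interval remained compatible with its values.

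**Figure D1:**
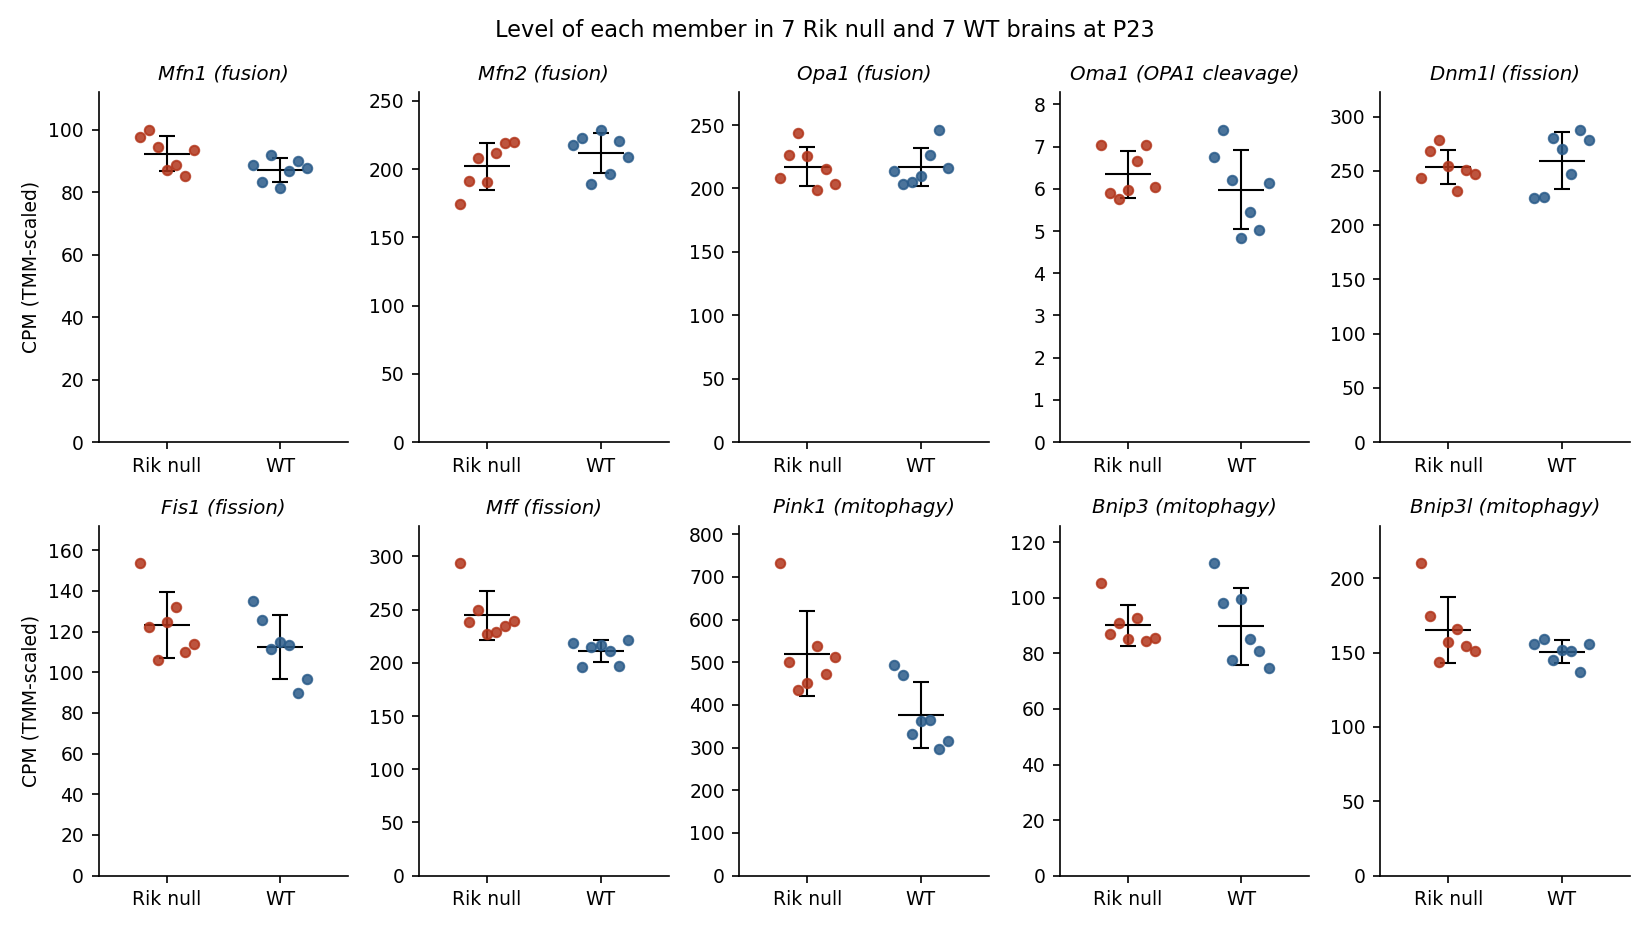
CPM of each member (y axis, from 0) in the 7 Rik null and 7 WT libraries, with points for libraries in replicate order and black lines for mean ± SD. The Mff points of the genotypes do not overlap, Pink1 is shifted upwards with overlap, and 1 Rik null library stands highest for Mff, Fis1, Pink1 and Bnip3l.

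**Figure D2:**
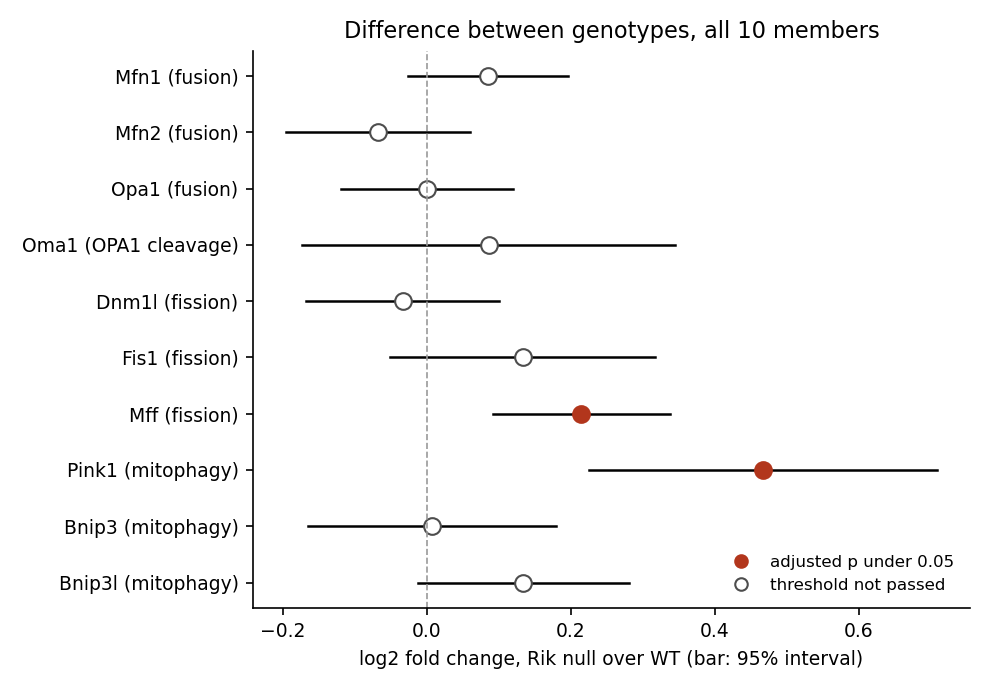
Log2 fold change of each member, Rik null over WT (x axis), with its 95% interval as a bar. The intervals of Mff (0.09 to 0.34) and Pink1 (0.23 to 0.71) lie above 0 and those of the other 8 members include 0.

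Pink1 (ENSMUSG00000028756, GRCm38 chr4:138313409-138326307, minus strand) encodes the mitochondrial kinase that starts ubiquitin-dependent mitophagy. Its lowest, median and highest levels were 434.5, 501.6 and 732.7 CPM in Rik null libraries, against 296.9, 363.0 and 493.4 CPM in WT libraries. All 7 Rik null libraries lay above the WT median and 4 lay above the highest WT library, while WT replicates 1 and 2, at 493.4 and 471.4 CPM, overlapped the Rik null range and the other 5 WT libraries lay below it. Means were 520.6 ± 100.2 CPM in Rik null and 376.7 ± 76.4 CPM in WT brains (SD, n = 7 each), and the log2 fold change was 0.47 with an SE of 0.116 (adjusted p = 0.00375). Rik null replicate 1 was the highest of all 14 libraries, and without it the log2 fold change was 0.37 (adjusted p = 0.00611). Its exons contain the annotated microRNA Mir7019 on the same strand, which had no count in any library.

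Mff (ENSMUSG00000026150, GRCm38 chr1:82724890-82752394, plus strand) encodes an outer membrane receptor for DRP1. It had 227.1, 238.6 and 293.8 CPM as the lowest, median and highest levels in Rik null libraries, against 195.9, 215.2 and 221.6 CPM in WT libraries. The genotypes did not overlap, and Mff was the only member of which this held, where 12.4% of tested genes had non-overlapping ranges. Means were 244.7 ± 22.9 CPM in Rik null and 210.9 ± 10.5 CPM in WT brains (SD, n = 7 each), and the log2 fold change was 0.21 with an SE of 0.0593 (adjusted p = 0.0077). Rik null replicate 1 was again the highest library, far above the next at 249.9 CPM, and the value without it was 0.17 (adjusted p = 0.00863). On the opposite strand, C430014B12Rik shares 195 bases of exon with Mff, and it had 33 counts over the 14 libraries.

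The sequences upstream of Pink1 and Mff are shown because these members were called, and that of Bnip3 because it is the classical hypoxia target among the members and was not. They are from the RefSeq promoter table (GRCm38.p6), which matched 9 of the 10 members, all but Bnip3l, and they end before the first transcribed base in RefSeq or GENCODE, whichever lies further upstream. Capitals mark matches, on either strand, to the E-box CACGTG read by TFE3 and related factors, to ACGTG, the core of the hypoxia response element, which every CACGTG also contains, to the GC box GGGCGG, and to CCAAT. The Pink1 stretch is chr4:138326308-138326546 (minus strand), the Mff stretch chr1:82724640-82724889 (plus strand) and the Bnip3 stretch chr7:138909520-138909756 (minus strand).
Pink1: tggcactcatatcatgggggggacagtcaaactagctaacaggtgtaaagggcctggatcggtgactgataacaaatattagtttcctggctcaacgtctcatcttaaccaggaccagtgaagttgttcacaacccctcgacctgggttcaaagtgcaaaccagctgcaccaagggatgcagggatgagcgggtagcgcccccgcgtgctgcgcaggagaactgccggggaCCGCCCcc
Mff: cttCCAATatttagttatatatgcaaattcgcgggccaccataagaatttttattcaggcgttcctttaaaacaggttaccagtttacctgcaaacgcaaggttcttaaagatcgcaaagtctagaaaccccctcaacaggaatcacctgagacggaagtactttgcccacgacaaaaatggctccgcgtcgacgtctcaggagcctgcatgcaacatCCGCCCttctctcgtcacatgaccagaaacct
Bnip3: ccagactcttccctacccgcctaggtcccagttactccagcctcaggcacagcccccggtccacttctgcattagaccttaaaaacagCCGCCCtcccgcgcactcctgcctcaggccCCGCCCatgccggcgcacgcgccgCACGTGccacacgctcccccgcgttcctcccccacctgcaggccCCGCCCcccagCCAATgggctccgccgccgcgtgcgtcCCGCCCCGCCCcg

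In the 250 bases before a RefSeq start, the GC box was found in 9 of 9 members and in 32.7% of 32851 promoters of that length. A member counted if any promoter listed for it matched, whereas the percentages are shares of single promoters. The member counts and the percentages are therefore unlike measures. CCAAT was found in 6 members (Mfn1, Opa1, Dnm1l, Fis1, Mff and Bnip3) and in 33.8% of promoters. CACGTG was present in Bnip3 alone among the members, as it was in 6.02% of promoters, and ACGTG in Bnip3 and Mfn2 (16.6% of promoters). The FOXO sequence GTAAACA was in no member's window (3.17% of promoters), and the palindromic consensus of NRF1 was in that of Opa1 alone (0.782% of promoters). Neither called member had CACGTG or ACGTG in its window. These matches describe letters only.

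Dnm1l, which encodes the fission dynamin DRP1, had 231.3, 250.7 and 278.5 CPM as the lowest, median and highest levels in Rik null libraries, against 225.1, 270.1 and 288.0 CPM in WT libraries. The ranges overlapped almost completely (log2 fold change -0.03, SE 0.0644, adjusted p = 0.722). Fis1 encodes a small outer membrane protein first described as the fission receptor of yeast. It had 105.9, 122.0 and 153.7 CPM in Rik null libraries, against 89.7, 113.2 and 135.1 CPM in WT libraries. Only Rik null replicate 1 exceeded the WT range, and the test was not passed (log2 fold change 0.13, SE 0.0886, adjusted p = 0.258). Thus 1 of the 3 fission genes rose, and the gene of the enzyme itself did not pass.

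Among the fusion genes no call was made. Mfn1, an outer membrane mitofusin, had 85.3, 93.6 and 100.05 CPM as the lowest, median and highest levels in Rik null libraries, against 81.4, 87.7 and 92.1 CPM in WT libraries. Although 4 Rik null libraries exceeded the highest WT library, the ranges overlapped and the test was not passed (log2 fold change 0.08, SE 0.0533, adjusted p = 0.23). Mfn2, the second mitofusin, which also tethers mitochondria to the endoplasmic reticulum, had 174.1, 208.1 and 220.1 CPM in Rik null libraries, against 189.4, 217.3 and 229.0 CPM in WT libraries. No Rik null library exceeded the WT range, and the test was not passed (log2 fold change -0.07, SE 0.0617, adjusted p = 0.42). Opa1, the inner membrane fusion dynamin, had almost equal medians, 215.1 CPM in Rik null and 214.0 CPM in WT libraries, and a log2 fold change of 0.0003 with a 95% interval of -0.12 to 0.12. Oma1, the stress-activated protease that cleaves OPA1 and thereby stops fusion, was the scarcest member. It had 98 to 125 counts in Rik null libraries and 75 to 108 counts in WT libraries, and its log2 fold change of 0.09 had the largest SE of the 10 members (SE 0.125, 95% interval -0.17 to 0.34, adjusted p = 0.629).

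The mitophagy receptors were not called. Bnip3, a receptor induced by hypoxia, had 84.5, 86.9 and 105.5 CPM as the lowest, median and highest levels in Rik null libraries, against 74.7, 85.0 and 112.5 CPM in WT libraries. The whole Rik null range lay inside the WT range (log2 fold change 0.01, SE 0.0828, adjusted p = 0.96). Bnip3l, also called Nix, is known for clearing mitochondria from maturing red cells and had 144.0, 157.4 and 210.2 CPM in Rik null libraries, against 137.0, 151.7 and 159.2 CPM in WT libraries. The ranges overlapped, with 3 Rik null libraries above the WT range (log2 fold change 0.13, SE 0.0706, adjusted p = 0.15). Bnip3l values carry an added uncertainty, since the pseudogene Bnip3l-ps, at 6.03 to 10.9 CPM in Rik null and 6.14 to 11.2 CPM in WT libraries, can share its reads. Under scaling by library size alone, which moves the median of all genes to 0.07, Bnip3l (0.20, adjusted p = 0.0242) and Mfn1 (0.15, adjusted p = 0.0417) passed as well.

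The members did not vary independently between animals of a genotype. After subtraction of genotype means from log2 CPM, Pink1 and Fis1 moved together (Pearson r = 0.91 over 14 libraries), Pink1 also with Bnip3 (0.84) and Bnip3l (0.76), and Dnm1l ran against Pink1 (-0.81) and Fis1 (-0.75). These are descriptions over libraries that share preparation and depth. The same order followed a property of the libraries. In each library, the deviation of log2 CPM from the average was regressed on log2 gene length over all tested genes, and this length slope ran from -0.051 to 0.025 in Rik null libraries and from -0.052 to 0.086 in WT libraries, with Rik null replicate 1 and WT replicates 1 and 2 at the low end and WT replicate 6 at the high end. Short genes thus read relatively high in the first 3 of these libraries and low in the last.

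Fis1 (r = -0.93 with the slope), Pink1 (-0.90), Bnip3 (-0.70), Oma1 (-0.69) and Bnip3l (-0.67) are the 5 members with the shortest gene lengths, 1714 to 3859 bases, and each was high where the slope was low. Dnm1l (0.85) and Opa1 (0.65) ran the other way, while Mfn2 (0.23), Mfn1 (0.04) and Mff (-0.30) had weak relations. An absolute r above 0.6 was found for 7 of the 10 members and for 24.6% of tested genes. With the slope as a covariate, an alternative added after these values were seen, the log2 fold change of Pink1 was 0.42 (adjusted p = 5.2e-06) and that of Mff 0.21 (adjusted p = 0.00389), and again no other member passed. The smaller adjusted p of Pink1 adds no support. The slope was computed from the same counts and was added after it was seen to run with Pink1. Without the 4 libraries named above, Mff fell short of the threshold, at 0.13 (adjusted p = 0.0537). The value of Pink1 was then 0.50, which adds no support, because the slope that chose these libraries runs with Pink1 and they include both WT libraries that overlapped the Rik null range.

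**Figure D3:**
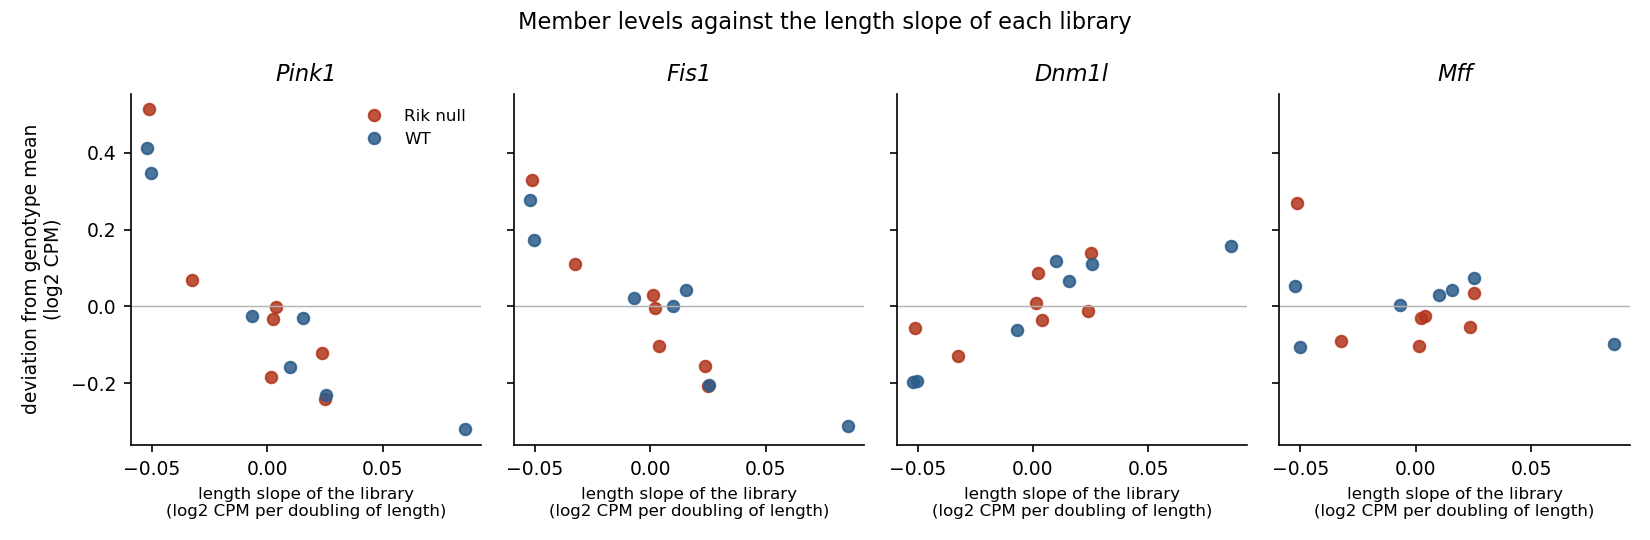
Deviation of log2 CPM from the genotype mean (y axis) against the length slope of the library (x axis, log2 CPM per doubling of gene length) for Pink1, Fis1, Dnm1l and Mff, with 1 point for each of 7 Rik null and 7 WT libraries. Pink1 and Fis1 fall with the slope (r = -0.90 and -0.93), Dnm1l climbs with it (0.85), and Mff shows little relation (-0.30).

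The genotype difference was also read in each labelled sex. The log2 fold change of Pink1 was 0.40 in females (adjusted p = 0.0938) and 0.49 in males (adjusted p = 0.0244), and that of Mff was 0.23 in females (adjusted p = 0.0886) and 0.16 in males (adjusted p = 0.15), with 4 Rik null and 3 WT females and 3 Rik null and 4 WT males. The difference between the sexes, tested as an interaction over 16882 genes in edgeR, passed for no gene (984 had an unadjusted p under 0.05, none of them a member), and the smallest adjusted p of a member was 0.872.

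Levels were compared between members on the deposited FPKM, which divide by gene length. Pink1 was the most abundant, at 161.2 to 271.3 FPKM in Rik null and 109.5 to 182.2 FPKM in WT libraries, above every library of the next gene, Fis1, at 61.3 to 88.7 FPKM in Rik null and 51.6 to 77.8 FPKM in WT libraries. Dnm1l followed at 44.0 to 53.1 FPKM in Rik null and 42.7 to 54.6 FPKM in WT libraries, where it overlapped with Fis1. The Dnm1l range also overlapped those of Mfn2 and Bnip3 in WT libraries and those of Bnip3 and Bnip3l in Rik null libraries. Mfn2, Bnip3 and Bnip3l formed a group whose ranges overlapped, with means of 38.6, 39.5 and 42.5 FPKM in Rik null and 40.3, 39.1 and 38.6 FPKM in WT brains, and the order within this group differed between genotypes. Opa1 (27.4 ± 1.96 in Rik null and 27.3 ± 1.88 FPKM in WT) and Mff (24.9 ± 2.31 in Rik null and 21.3 ± 1.09 FPKM in WT) came next and overlapped in Rik null but not in WT libraries. Mfn1 had 14.98 ± 0.885 FPKM in Rik null and 14.1 ± 0.593 FPKM in WT brains, and Oma1 was the lowest, at 2.93 ± 0.256 FPKM in Rik null and 2.75 ± 0.424 FPKM in WT brains (SD, n = 7 each). The receptor Mff was therefore less abundant per length than the dynamin it recruits in every library. Since a gene's length here is one value for all of its transcripts, these levels cannot follow a change of isoform.

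**Figure D4:**
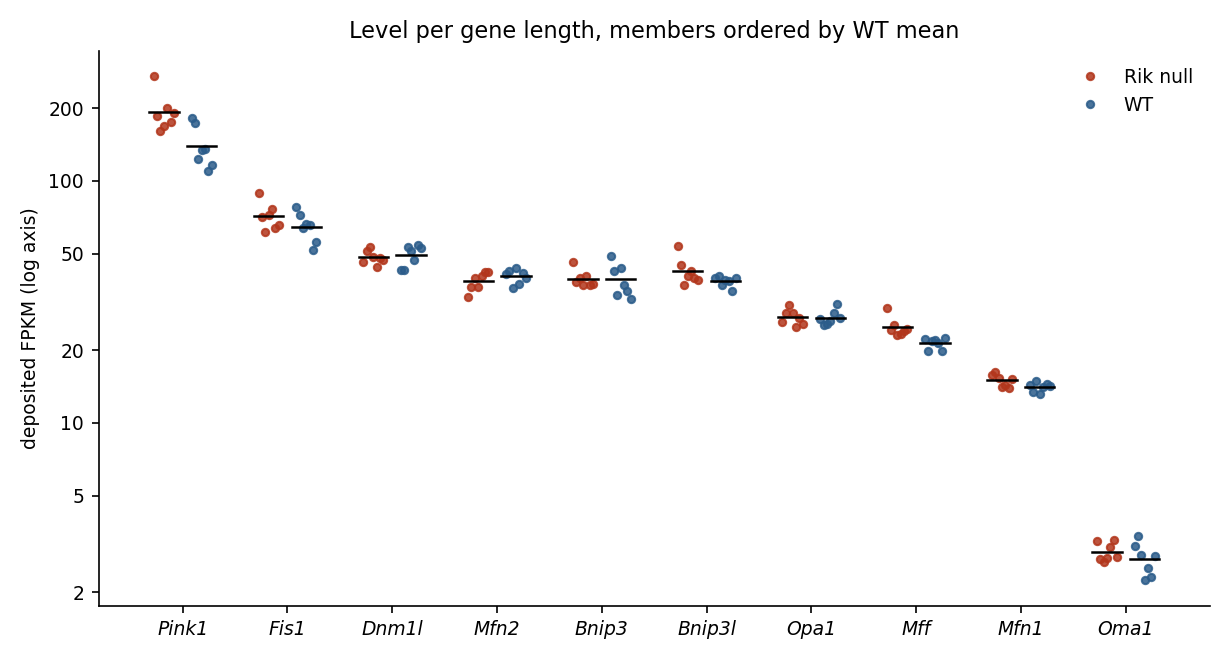
Deposited FPKM (y axis, log scale) of each member in 7 Rik null and 7 WT libraries, ordered by WT mean, with lines for group means. Pink1 lies above all other members and Oma1, at 2.23 to 3.40 FPKM over all libraries, far below them.

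Genes that act on the members were read from lists drawn up by function. The share called, higher or lower, was 58.3% for OPA1 processing, 46.2% for cristae junctions, 47.1% for fission adaptors and 40% for mitochondrial transport. It was 24.1% for core autophagy, 55% for hypoxia targets and 13.3% for transcription factors, against 34.4% of all tested genes. OPA1 is cut by inner membrane proteases held in prohibitin scaffolds. A list of 12 genes held these proteases and scaffolds together with the matrix presequence peptidase (Pmpca and Pmpcb) and the relay of mitochondrial stress from OMA1 (Dele1 and Eif2ak1), and 4 of them rose and 3 fell, with a median of 0.02 on the log2 scale. Spg7, the paraplegin subunit of the m-AAA protease, rose (0.40, SE 0.0678, adjusted p = 0.000133), as did the rhomboid protease Parl (0.29, adjusted p = 0.0118), which also cleaves PINK1. The other genes that rose were Afg3l2 (0.16, adjusted p = 0.0272) and Stoml2 (0.21, adjusted p = 0.0321). The m-AAA subunit Afg3l1 (-0.48) and the prohibitin Phb (-0.29) fell, and the other gene that fell was Pmpca (-0.18, adjusted p = 0.0288). Yme1l1, the i-AAA protease that cuts OPA1 at its other site, had a value of 0.12 (adjusted p = 0.0982), and 0.15 (adjusted p = 0.0317) without Rik null replicate 2. The number that rose was 2 without WT replicate 3 or WT replicate 4. Of 13 genes for cristae junctions and the MICOS complex, which works with OPA1 in shaping the inner membrane, 5 fell and 1 rose (median -0.13). Chchd10 (-0.41), the MICOS subunit gene Chchd3 (-0.29) and Apool (-0.65) fell and the outer membrane gene Mtx1 (0.28) rose. Without WT replicate 2 the number that fell was 3, and without WT replicate 1 the number that rose was 2.

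Of 17 tested adaptors and regulators of fission, 5 rose and 3 fell (median -0.02). Inf2, a formin that assembles actin at division sites, fell to 61.0 CPM in Rik null brains, against 96.9 CPM in WT brains (log2 fold change -0.67, SE 0.0693, adjusted p = 3.4e-07), while Spire1, an actin nucleator that works with INF2, was 254.6 CPM in Rik null and 201.5 CPM in WT brains (0.34, adjusted p = 0.000254). Neither gene overlapped between genotypes. Marchf5 (0.24), a ubiquitin ligase for DRP1 and its receptors, the phosphatase Pgam5 (0.21) and Slc25a46 (0.23) rose, and Sh3glb1 (-0.30), an endophilin, fell. The other DRP1 receptors did not pass, with Mief1 at -0.18 (adjusted p = 0.0784, but 0.0334 without WT replicate 2, at -0.22) and Mief2 at -0.02 (adjusted p = 0.878). Mff was thus the DRP1 receptor gene that was called, and no difference between it and the others was tested.

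Of 19 genes of mitophagy beyond the members, 4 rose, 2 fell and 13 did not pass (median 0.05). The share called was 31.6%, against 34.4% of all tested genes. The cargo adaptor Optn (0.43, SE 0.0811, adjusted p = 0.000318), its kinase Tbk1 (0.28, adjusted p = 0.00145) and the adaptor Sqstm1, encoding p62 (0.28, adjusted p = 0.00188), rose. Optn averaged 29.1 CPM in Rik null and 21.6 CPM in WT brains, and its ranges did not overlap. Usp15, a deubiquitinase that opposes mitophagy, fell (-0.19, adjusted p = 0.00898). The remaining calls were Fbxl4, which rose (0.25, adjusted p = 0.0461), and Nipsnap2, which fell (-0.19, adjusted p = 0.0213). Neither of these calls held in every fit without a single library. The number of genes that fell was 1 without WT replicate 2. The hypoxia-linked receptor Fundc1 had a value of -0.13 (adjusted p = 0.164). Of 29 core autophagy genes 4 rose and 3 fell (median -0.05). Atg16l1 (0.47), Atg13 (0.31), Ulk1 (0.27) and Atg4a (0.53) rose. Ulk2 (-0.37), the paralogue of the Ulk1 kinase, Wipi1 (-0.47) and Map1lc3a (-0.29, adjusted p = 0.0256) fell, the last not in every fit without a single library. Without WT replicate 6 the number that rose was 7, and without Rik null replicate 7 the number that fell was 5.

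Of 10 genes for transport of mitochondria on microtubules 4 fell and none rose (median -0.10). Kif5a, a kinesin heavy chain of neurons, averaged 2199.9 CPM in Rik null and 2758 CPM in WT brains (-0.33, adjusted p = 0.00214), and the adaptor Trak2 fell as well (-0.18, adjusted p = 0.0133). The study counts both of these genes, and also Ndrg1 of the HIF targets, among genes of myelinating oligodendrocytes. It lists Kif5a, Trak2 and Ndrg1 as not significant at P23. The rule it states also asks for a change of at least 2-fold, which was not required here. Markers of those cells fell in the same libraries (11 of 12), and their part in the values of these genes was not tested. The number that fell was 2 without WT replicate 5, and 1 gene rose without Rik null replicate 3, Rik null replicate 6, WT replicate 1 or WT replicate 6.

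Bnip3 is a target of the hypoxia-inducible factors (HIF), and 20 other targets were read beside it. Of these, 4 rose and 7 fell (median -0.22). Kdm3a (0.64), Ddit4 (0.80) and Bhlhe40 (0.36) rose, and P4ha1 (-0.77), Ak4 (-0.68), Pdk1 (-0.37) and Ndrg1 (-0.46) fell, so that HIF targets moved in both directions while Bnip3 did not pass. Among 15 transcription factors and coactivators for mitochondrial and autophagy genes 2 rose and none fell. The share called was 13.3%, against 34.4% of all tested genes. Tfe3, a factor for lysosomal and autophagy genes, was 37.8 CPM in Rik null and 28.7 CPM in WT brains (0.40, adjusted p = 0.000123). The number of these factors that rose was 1 without Rik null replicate 4 or WT replicate 2, and 1 gene fell without WT replicate 3.

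**Figure D5:**
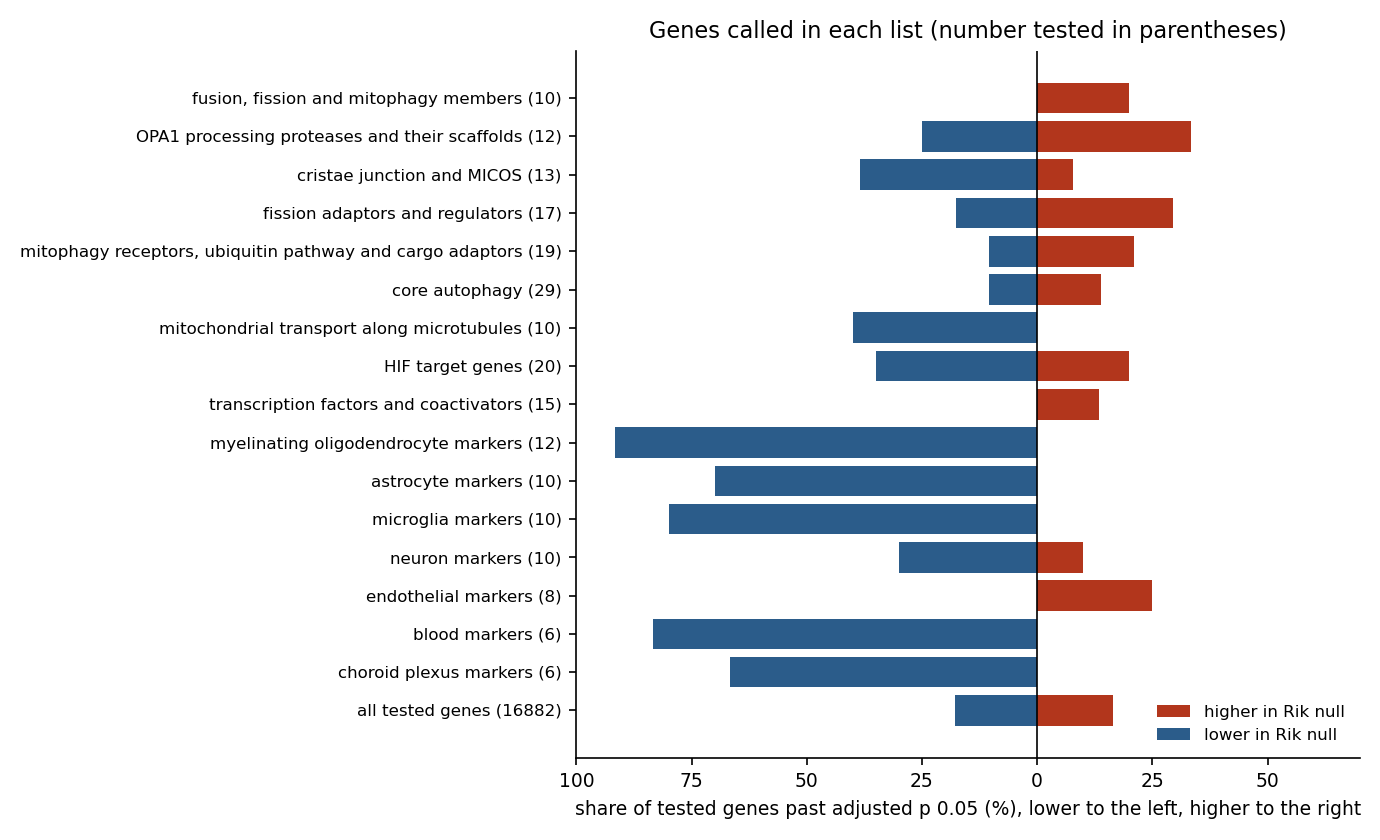
Share of tested genes in each list that passed adjusted p 0.05 (x axis, %), with genes higher in Rik null to the right and lower to the left, and the number tested in parentheses. The members have 2 of 10 higher and none lower, where all tested genes have 16.5% higher and 17.9% lower.

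The cell type markers moved with genotype in the same libraries. Of all tested genes 34.4% were called, against 40% of neuron markers, 25% of endothelial markers and 66.7% to 91.7% of each other marker list. Of 12 markers of myelinating oligodendrocytes 11 fell, with summed levels of 13145 to 16422 CPM in Rik null and 19403 to 23758 CPM in WT libraries. Of 10 astrocyte markers 7 fell (4345 to 5144 CPM in Rik null and 5650 to 6931 CPM in WT libraries), and of 10 microglia markers 8 fell (230.1 to 291.6 CPM in Rik null and 331.8 to 460.6 CPM in WT libraries), and these 3 sums did not overlap. Neuron markers, which define the tissue together with the glial ones, were at 7005 to 7740 CPM in Rik null and 7464 to 8332 CPM in WT libraries, with 3 of 10 lower and 1 higher, and the single rise was lost without Rik null replicate 2 or 4 or WT replicate 3, 4 or 5. Of 8 endothelial markers 2 rose (249.9 to 292.8 CPM in Rik null and 211.1 to 269.4 CPM in WT libraries). Of 6 blood markers 5 fell, and of 6 choroid plexus markers 4 fell. The number of endothelial markers that rose was 1 without Rik null replicate 2, 4 or 5, and 1 fell without Rik null replicate 1. No marker was at 0 in any library. In bulk tissue, fewer cells of a type and less RNA per cell cannot be told apart, and the part of these differences in the values of Pink1, Mff and the lists was not tested.

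Genes that varied most like the called members were sought by the correlation of log2 CPM after subtraction of genotype means, over 14 libraries and among genes with a mean of at least 1 CPM. For Pink1 they were Nop53 (r = 0.97), Snrpb (0.97) and Psma2 (0.96), and for Mff they were Armcx5 (0.94), Taf1d (0.92) and Mthfd2l (0.87). Pink1 ran with the length slope (r = -0.898). An r below -0.9 with the slope was found for 261 of 16882 tested genes, among them Fis1 but not Pink1. For Mff, Rik null replicate 1 deviated most, by 0.27 log2 CPM. The part of the slope and of this library in these correlations was not tested.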

How the data were processed

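The members and the gene lists were chosen with earlier results of these data known. The table that the authors deposited holds raw read counts and FPKM of each gene in 14 libraries. Which aligner, counter, annotation and strand setting made them is not stated in these sources, and the submitters' processing notes name GRCm38. Without strand, reads of a member and of an antisense gene cannot be told apart. The deposited FPKM equalled count over gene length over a library constant and entered no test. Deposited columns of the authors' own comparison, signal (group means of normalised counts), log2 fold changes and p-values, were left aside. Positions are from GENCODE M21 by gene identifier, because the positions in the table match that annotation for 1448 of 52073 shared identifiers.

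The count test was the two-sided quasi-likelihood F test of edgeR 4.0.16 (R 4.3.3, with filterByExpr, TMM, glmQLFit and glmQLFTest), in a model of genotype alone, and was tested on simulated data. The common biological coefficient of variation was 14.3%. SE is the absolute log2 fold change over the square root of F. Log2 CPM for correlations used a prior count of 2. Each library counted as a replicate on the basis of its label. No pair of libraries was identical (smallest chi-square per degree of freedom within a genotype 4.71). This check finds copies of a library and cannot show that 2 libraries came from different animals. Named by rule were the members, Rik, up to 4 genes of smallest p per list and direction past the threshold with a mean of at least 1 CPM, Fundc1, Yme1l1, Mief1 and Mief2, and 3 similar genes for each called member. Values are given for the list genes so named whose call held with each single library left out, and for the 4 named outright. They are also given for Pmpca, Afg3l2, Stoml2, Fbxl4, Nipsnap2 and Map1lc3a. Cell type markers are given as counts and sums. Another gene named outright is not reported here. Alternatives were DESeq2 1.42.0, other scalings and filters, robust dispersion, sex, the replicate number, libraries left out, each sex alone, and, added after seeing the data, the length slope as a covariate and the omission of the 4 libraries with the most extreme slopes.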

Additional observations from a re-analysis of the deposited data

Results flagged for a closer look

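Single libraries far from the other 6 of their genotype were sought by Dixon's criterion (gap to the nearest library over the whole range, at the 95% critical value for 7 samples). The search covered the members and 38 of the list genes named, 96 groups of 7 in all. Chance flags about 1 in 20 groups, and 11 values were found, 9 of them in Rik null replicate 1. In that library Pink1 was 732.7 CPM, against 434.5 to 538.8 CPM in the other Rik null libraries, Mff was 293.8 CPM, against 227.1 to 249.9 CPM, and Bnip3 was 105.5 CPM, against 84.5 to 92.7 CPM. It was also highest for Spire1 (308.1 CPM), Marchf5 (93.6 CPM) and Slc25a46 (149.1 CPM), and lowest for Inf2 (48.6 CPM), Ulk2 (90.0 CPM) and P4ha1 (16.4 CPM). Yme1l1 was lowest in Rik null replicate 2 (106.5 CPM), and Parl was highest in WT replicate 6 (28.8 CPM). Pink1 and Mff stayed called without Rik null replicate 1. No member passed the test of a difference between the sexes.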

How the results depend on the processing

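Pink1 and Mff kept their direction in 28 alternatives, Pink1 with a log2 fold change of 0.36 to 0.54 and Mff of 0.13 to 0.28, and no member fell in any. Both passed in each of the 14 fits without a single library, Pink1 at 0.374 to 0.542 and Mff at 0.173 to 0.232. In females alone no member was called, Mff being 0.234 (adjusted p = 0.0886) and Pink1 0.397 (adjusted p = 0.0938), and 1282 genes rose and 1592 fell over all. In males alone 1 member, Pink1, was called, Mff was 0.159 (adjusted p = 0.15), and 1241 genes rose and 1496 fell. Fewer libraries entered both fits. Under library size alone 4 members rose, with Mfn1 at 0.154 (adjusted p = 0.0417) and Bnip3l at 0.203 (adjusted p = 0.0242) added, and 63.8% of calls over all genes were higher, against 47.9% with TMM. Without the 4 libraries of most extreme length slope 1 member rose, Mff then being 0.131 (adjusted p = 0.0537). The number of genes past 2-fold was 1022 with DESeq2 and 1107 with no filter beyond 1 count, against 597. Both gave a log2 fold change for 36521 genes, whereas DESeq2 by default leaves genes of low mean out of its adjustment of p. Signs of uncalled members near 0 varied: Opa1 ran from -0.029 to 0.07, Bnip3 from -0.116 to 0.091, Mfn2 from -0.095 to 0.01, Dnm1l from -0.093 to 0.036, Oma1 from -0.003 to 0.179 and Fis1 from -0.007 to 0.255. The same 38 list genes gave 1064 alternative values, of which 33 lost a call, 3 gained one and none reversed. With the replicate number as a block, Pink1 was 0.471 (adjusted p = 6.2e-05) and Mff 0.211 (adjusted p = 0.00657), and no other member passed. Whether the numbers pair littermates is not stated. Deviations of same-numbered libraries correlated at -0.065 to 0.14, and 3 of 14 libraries were closest to their own number. These values cannot settle it, because deviations also follow properties of the libraries such as the length slope. Except as named, the cause of a changed call was not tested. Depth limits Oma1 most, at 75 to 125 counts per library.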
